A study of Mus musculus with 19 samples.

Results

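The glucocorticoid receptor gene Nr3c1 and 9 genes widely used as readouts of the receptor's activity were followed through 19 liver libraries. The 10 genes are Nr3c1, Fkbp5, Tsc22d3, Klf9, Zbtb16, Sgk1, Map3k6, Rasd1, Errfi1 and Fam107a, taken by symbol as the receptor and well known genes it induces. All 10 were found by symbol among 55416 gene rows of the count table, and all 10 were among the 15570 genes kept for testing. Every liver came from a C57BL/6 mouse. Some sets were wild type (WT): 4 normal libraries from non-injected mice, 4 WT vehicle libraries and 4 WT PRA libraries. The other libraries, 4 vehicle and 3 PRA, were labelled IL-6 -/- and are called KO vehicle and KO PRA. Vehicle or furosemide was injected into the peritoneum in a pair of doses separated by 3 h, with 4 mg of furosemide per dose, and the liver was taken 6 h after the first of them. The loop diuretic furosemide makes the kidney lose salt and water, and PRA is pre-renal azotemia, the accumulation of nitrogenous waste in blood when the kidney is poorly perfused. The normal mice had no injection at all, and no non-injected IL-6 -/- group was analysed here. Age, sex and the hour of harvest are not given in the labels, nor is whether each replicate of a group was its own mouse. The p-values therefore rest on the variation among libraries of a group, part or all of which may be technical.

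Glucocorticoids are adrenal steroids released under stress and on a daily rhythm. In cells the hormone binds the receptor encoded by Nr3c1, which is held ready by heat shock protein chaperones, and the bound receptor enters the nucleus and binds DNA at paired half-sites or joins other transcription factors. In hepatocytes the receptor is known for raising genes of glucose production and amino acid breakdown and for acting with interleukin-6 (IL-6) signals on acute phase genes. Some targets feed back on the pathway: the product of Fkbp5 lowers the receptor's affinity for hormone.

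Counts in genes ran from 32073865 to 74041441 per library, so 3 counts, the limit that a count of 0 allows, correspond to 0.0351 to 0.108 CPM (counts scaled to a fixed library total, here after TMM scaling). These limits cover counting error only. The first principal component of the log2 CPM placed the 7 PRA libraries at 33.4 to 56.9 and the other 12 at -38 to -12.2. The scaling factors of the libraries moved with the treatment as well, at 0.845 to 0.953 under PRA and 1.01 to 1.16 in the other groups. Il6 itself was at 0 to 4 counts in the WT libraries and at 1 to 5 in the libraries labelled IL-6 -/-, except for 16 in KO PRA replicate 2. A count over the whole gene can include transcript outside a deleted part, so Il6 does not check the genotype, and IL-6 -/- is used here as labelled. All 7 hepatocyte markers were detected in every group, with a summed level of 66868 to 138640 CPM.

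Markers of other cells moved in part with the treatment. By the edgeR test described below, 9.74% of all tested genes rose and 12.3% fell under PRA in WT. In KO the shares were 7.96% and 8.38%, and the marker counts are to be read beside them. Summed neutrophil markers (9 genes) were at 1.42 to 3.20 CPM in WT vehicle and 9.98 to 11.7 in WT PRA. They were at 4.41 to 5.96 CPM in KO vehicle and 4.08 to 13 in KO PRA. All 5 that could be tested rose in WT, and 2 of them in KO. Of 7 stellate cell markers 4 fell under PRA in WT and 3 in KO, and of 6 B cell markers 3 fell in WT and 5 in KO. The sinusoidal endothelial list was mixed, with 1 of 8 markers higher and 4 lower in WT, and 1 higher and 2 lower in KO. Summed T and NK cell markers (9 genes) were at 3.44 to 5.91 CPM in WT vehicle, 5.05 to 6.33 in WT PRA, 4.77 to 7.31 in KO vehicle and 5.20 to 5.94 in KO PRA, so that PRA overlapped vehicle in each genotype. Of 5 red blood cell markers 4 rose in WT, with sums of 139 to 152 CPM after vehicle and 167 to 211 under PRA. In KO 0 of the 5 rose, and the sums of 133 to 159 and 152 to 193 CPM overlapped. The 4 adipose markers summed to 13.9 to 18.6 and 21.2 to 35.6 CPM in WT, and to 12.8 to 15.7 and 21.8 to 36.2 in KO, without overlap. The adrenal cortex list (5 genes) summed to 0.618 to 2.77 CPM in WT vehicle and 4.76 to 11.3 in WT PRA. In KO it summed to 1.08 to 1.72 CPM after vehicle and 2.91 to 4.71 under PRA. Its defining genes Cyp11b1 and Mc2r were at 0 in every library. The part of these cells in the results below was not tested. In whole tissue, fewer cells of a type and less RNA per cell cannot be told apart.

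Pre-renal azotemia was accompanied by a rise of most of the 9 targets and by a small fall of the receptor gene in WT liver. In WT PRA against WT vehicle, 7 of the 10 genes rose (Fkbp5, Tsc22d3, Sgk1, Map3k6, Rasd1, Errfi1 and Fam107a), 1 fell (Nr3c1) and 2 did not pass the test (Klf9 and Zbtb16), by edgeR's quasi-likelihood test with p-values adjusted over all tested genes and a threshold of 0.05. Among all tested genes, 22.1% passed in that comparison, 9.74% higher and 12.3% lower. In KO PRA against KO vehicle, all 9 targets rose and Nr3c1 did not pass, against 16.3% of all genes, 7.96% higher and 8.38% lower. The median log2 fold change over the 10 genes was 1.31 in WT and 1.89 in KO, where all tested genes had medians of -0.0255 and -0.00433. With upper quartile scaling in place of TMM the split over all genes shifted from 1516 higher and 1921 lower to 1238 and 2399 in WT, and from 1240 and 1304 to 967 and 1774 in KO. The levels that follow are TMM-scaled CPM, given in the order of the replicate numbers. The share of all genes with groups that do not overlap was not counted, so a separation of ranges is a description only.

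**Figure D1:**
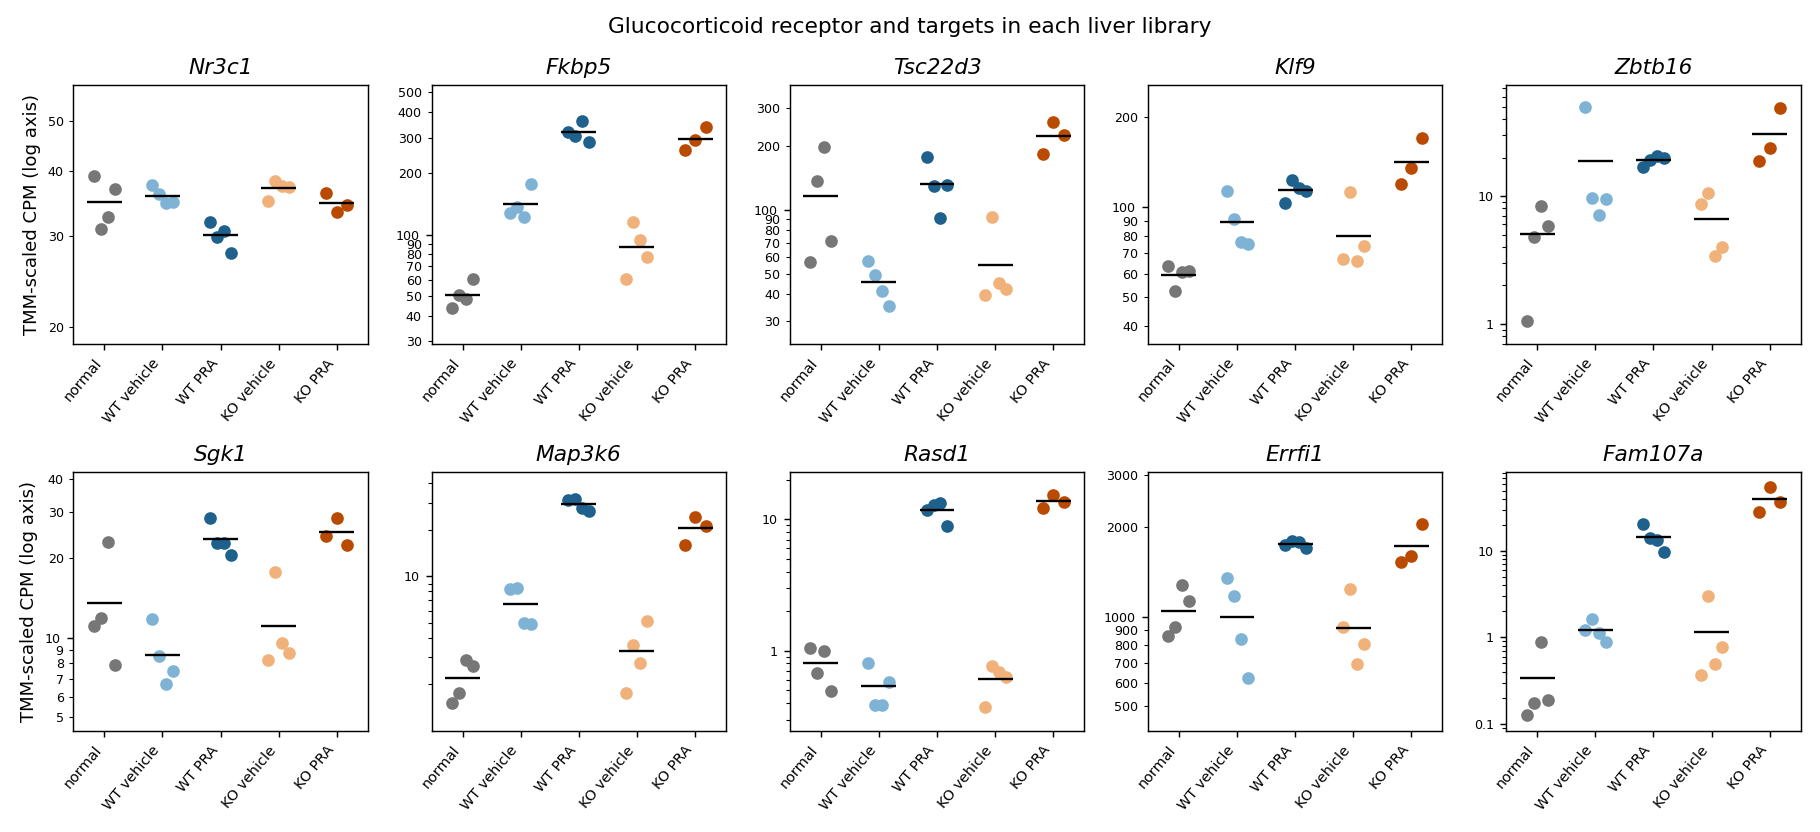
TMM-scaled CPM (log axis, own range per gene) of the 10 genes in each library of the 5 groups; points are libraries in the order of their replicate numbers and bars are group means. Rasd1, Fam107a, Map3k6, Fkbp5 and Errfi1 have every PRA library above every other library, while Nr3c1 spans 27.8 to 39.1 CPM over all 19.

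Nr3c1 (ENSMUSG00000024431), the receptor, stayed between 27.8 and 39.1 CPM over the 19 libraries. It was at 37.5, 36.1, 34.7 and 34.9 CPM in WT vehicle and 31.9, 29.8, 30.6 and 27.8 in WT PRA. The ranges did not overlap, and the fall from 35.8 ± 1.29 to 30.0 ± 1.73 CPM (SD, n = 4 each) had a log2 fold change of -0.25 (SE 0.0774, edgeR adjusted p = 0.0221). This call is near the threshold: it held in 12 of 18 alternative analyses and was lost on leaving out replicate 1 of WT vehicle (edgeR adjusted p = 0.056) or replicate 2 or 4 of WT PRA (0.051 and 0.0753). KO vehicle livers had 35.0, 38.3, 37.3 and 37.3 CPM and KO PRA livers 36.3, 33.4 and 34.3. Those ranges overlapped, and the difference of -0.09 (SE 0.0834) did not pass (edgeR adjusted p = 0.484). It passed in 1 of 17 alternatives, library totals with no scaling factors (-0.30, edgeR adjusted p = 0.0205), under which the median of all genes was itself -0.21. Normal livers spread most widely, at 39.1, 30.8, 32.6 and 36.8 CPM, and overlapped every other group. By mean level the order was KO vehicle, WT vehicle, normal, KO PRA and WT PRA, and the single pair of neighbours in that order without overlap was KO PRA above WT PRA.

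Fkbp5 (ENSMUSG00000024222) encodes the FK506-binding co-chaperone of the receptor and had 4 separate levels over the 5 groups. Normal libraries held 43.7, 50.3, 48.3 and 60.6 CPM and WT vehicle libraries 129, 137, 122 and 178. WT PRA libraries reached 318, 305, 362 and 285 CPM. Each WT group lay wholly above the one before it. WT PRA exceeded WT vehicle 2.25-fold, from 141 ± 24.9 to 318 ± 32.7 CPM (log2 fold change 1.17, SE 0.161, edgeR adjusted p = 2.79e-05). In IL-6 -/- livers the level was 60.9, 115, 94.1 and 78.2 CPM after vehicle and 259, 291 and 337 under PRA, a 3.40-fold rise (1.76, SE 0.172, edgeR adjusted p = 9.5e-07). Both PRA groups overlapped each other. The KO vehicle range lay between normal and WT vehicle without touching either, its lowest library being 60.9 CPM against 60.6 in the highest normal library.

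Tsc22d3 (ENSMUSG00000031431) encodes GILZ, a leucine zipper protein known for mediating anti-inflammatory effects of glucocorticoids. WT vehicle livers had 57.2, 49.6, 41.5 and 35.1 CPM and WT PRA livers 177, 129, 91.4 and 130.4. All PRA libraries were above all vehicle libraries, and the rise was 2.88-fold (log2 fold change 1.52, SE 0.368, edgeR adjusted p = 0.00753). In KO vehicle, 3 libraries lay at 39.7, 45.3 and 42.3 CPM and replicate 2 at 92.7, while KO PRA had 183, 257 and 224, a 4.02-fold rise (2.01, SE 0.391, edgeR adjusted p = 0.00241). Normal livers, at 57.0, 137, 197 and 71.4 CPM, covered most of the range between vehicle and PRA. The order by mean was KO PRA, WT PRA, normal, KO vehicle and WT vehicle, and the break without overlap in it was KO PRA above WT PRA.

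Klf9 (ENSMUSG00000033863) encodes a Krüppel-like transcription factor that is a direct and circadian target of the receptor. WT vehicle libraries ran from 113 CPM in replicate 1 down to 75.4 in replicate 4, and WT PRA libraries from 103 to 123, so the groups overlapped through WT vehicle replicate 1. The difference of 0.35 on the log2 scale (SE 0.156) did not pass (edgeR adjusted p = 0.11), and without that library it was 0.50 and passed (edgeR adjusted p = 0.0268). In KO livers, levels rose 1.77-fold, from 67.3, 112, 66.3 and 74.0 CPM to 119.7, 135 and 170.2 (log2 fold change 0.83, SE 0.167, edgeR adjusted p = 0.00178), with no overlap.

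Zbtb16 (ENSMUSG00000066687) encodes PLZF, a zinc finger transcription factor that responds to glucocorticoids in many tissues. It was at 49.4 CPM in WT vehicle replicate 1 and at 9.75, 7.16 and 9.51 in the other WT vehicle libraries. WT PRA libraries lay close together at 17, 19.1, 20.6 and 19.8 CPM. They were above 3 vehicle libraries and below the fourth, and the fitted difference was 0.00 (SE 0.637, edgeR adjusted p = 0.997). Without WT vehicle replicate 1 it was 1.1, still short of the threshold (edgeR adjusted p = 0.149). That library had 4.24 CPM of summed T and NK cell markers, within the 3.44 to 5.91 of its group. It was the highest of its group in summed sinusoidal endothelial (337 CPM), Kupffer cell (220), neutrophil (3.20) and adrenal cortex (2.77) markers. In hepatocyte markers it was the lowest (70177 CPM), and in the remaining marker lists it lay within its group. Why its Zbtb16 level stood apart was not tested. KO PRA livers, at 18.7, 23.9 and 48.8 CPM, were all above KO vehicle at 8.60, 10.7, 3.42 and 4.00 (log2 fold change 2.18, SE 0.701, edgeR adjusted p = 0.0464). This call held in 7 of 17 alternatives, and with the replicate number as a block the edgeR adjusted p was 0.102. Leaving out any single library lost it (edgeR adjusted p from 0.0546 to 0.168), except KO vehicle replicate 2.

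Other targets act in signalling. Rasd1 (ENSMUSG00000049892), a Ras-like GTPase first known as a dexamethasone-induced gene, was low but detected outside PRA. It was at 0.807, 0.389, 0.387 and 0.582 CPM in WT vehicle and 11.8, 12.7, 13.2 and 8.88 in WT PRA. Every PRA library was far above every vehicle library, 21.0-fold on average (log2 fold change 4.39, SE 0.253, edgeR adjusted p = 3.5e-10). KO vehicle had 0.370, 0.763, 0.687 and 0.626 CPM and KO PRA 12.1, 15.3 and 13.6, a 22.2-fold rise (4.47, SE 0.261, edgeR adjusted p = 9.17e-10). Normal livers, at 1.05, 0.672, 0.995 and 0.498 CPM, overlapped both vehicle groups.

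Errfi1 (ENSMUSG00000028967) encodes an inhibitor of the EGF receptor that is abundant in liver. Vehicle libraries were spread, from 620.2 to 1344 CPM in WT and 693 to 1240.3 in KO, whereas WT PRA libraries lay within 1702 to 1801 CPM. All PRA libraries of both genotypes were above all vehicle libraries. The rise was 1.77-fold in WT (log2 fold change 0.82, SE 0.205, edgeR adjusted p = 0.00686) and 1.88-fold in KO, to 1523, 1603 and 2049 CPM (0.91, SE 0.218, edgeR adjusted p = 0.00708).

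Sgk1 (ENSMUSG00000019970), a kinase that promotes sodium transport and cell survival, was at 11.8, 8.57, 6.69 and 7.53 CPM in WT vehicle and 28.3, 22.8, 22.9 and 20.6 in WT PRA. The groups did not overlap, and the rise was 2.72-fold (log2 fold change 1.45, SE 0.301, edgeR adjusted p = 0.00249). KO PRA livers had 24.3, 28.3 and 22.5 CPM against 8.26, 17.8, 9.52 and 8.77 in KO vehicle, a 2.25-fold rise (1.17, SE 0.316, edgeR adjusted p = 0.0181). The KO call was lost on leaving out replicate 2 of KO PRA (edgeR adjusted p = 0.0714) or replicate 1, 3 or 4 of KO vehicle (0.0537, 0.0502 and 0.0527). Normal livers had 11, 11.9, 23.1 and 7.92 CPM, so that replicate 3 alone reached the PRA range.

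Map3k6 (ENSMUSG00000028862), a stress kinase also called ASK2, was at 8.31, 8.41, 4.98 and 4.93 CPM in WT vehicle and 31.1, 31.8, 27.6 and 26.6 in WT PRA, a 4.38-fold rise (log2 fold change 2.13, SE 0.272, edgeR adjusted p = 2.7e-05). In KO livers it went from 1.75, 3.59, 2.75 and 5.16 CPM to 15.9, 24.2 and 21.3, a 6.18-fold rise (2.63, SE 0.295, edgeR adjusted p = 1.37e-05). All WT PRA libraries were above all KO PRA libraries, and both PRA groups were above every vehicle and normal library.

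Fam107a (ENSMUSG00000021750) encodes an actin-binding protein, also known as DRR1, that glucocorticoids and stress raise in brain. It was low outside PRA, at 0.125, 0.177, 0.883 and 0.189 CPM in normal liver and 1.22, 1.63, 1.12 and 0.891 in WT vehicle. In WT PRA it was at 20.8, 14.2, 13.5 and 9.67 CPM, 11.8-fold above vehicle (log2 fold change 3.56, SE 0.564, edgeR adjusted p = 0.000346). KO vehicle livers had 0.370, 2.99, 0.491 and 0.777 CPM and KO PRA livers 28.2, 55.1 and 36.8, a 33.4-fold rise (5.06, SE 0.606, edgeR adjusted p = 4.67e-05). Without KO vehicle replicate 2, which was the highest of its group for this gene, the log2 fold change was 6.20.

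**Figure D2:**
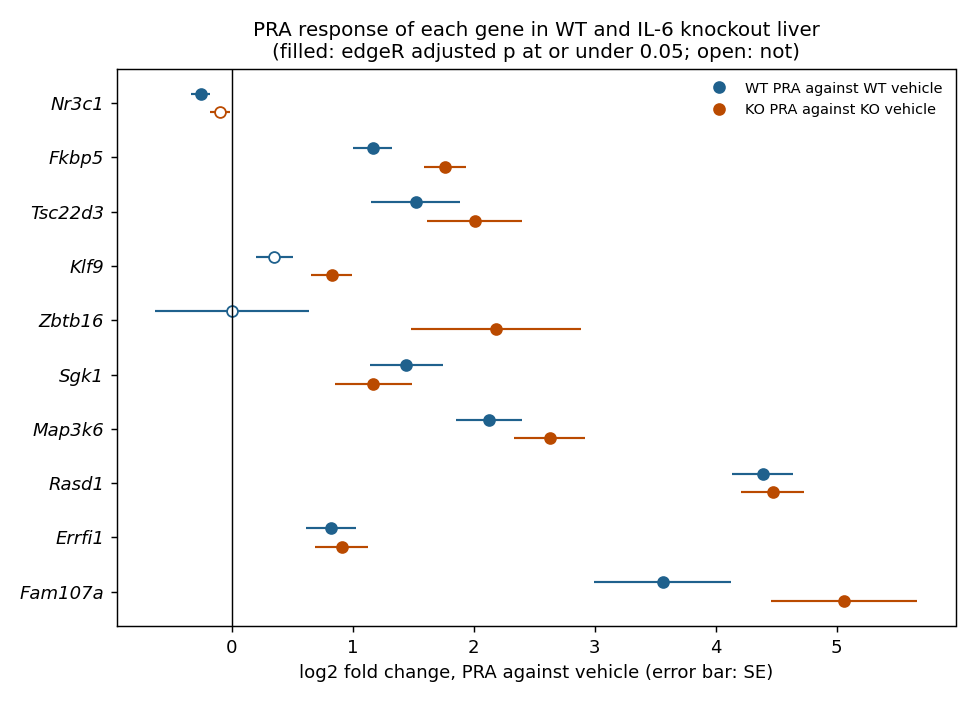
Log2 fold change of each gene, PRA against vehicle, in WT (blue) and IL-6 -/- (KO, orange) liver with the SE of the fit; filled points passed an edgeR adjusted p of 0.05. Rasd1 and Fam107a lie farthest to the right in both genotypes and Nr3c1 is at or just left of 0.

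Sgk1, Map3k6 and Fam107a share a feature of their promoters. The 10 genes were chosen as the receptor and its known targets, so a receptor site among them is not independent of that choice. The receptor binds as a dimer to paired half-sites, and the palindrome GNACANNNTGTNC, read the same on both strands, was searched in RefSeq promoter windows of build GRCm38.p6, which run from 250 bases before to 50 after a start site. Windows on the chromosome that carries Nr3c1 were left out for the 10 genes, though not for the other sets. None was matched for Zbtb16 and Rasd1. Windows of 7 of the 10 genes were thus searched (17 windows, since several genes have more than 1 start). The palindrome was in 3 of these 7 genes (42.9%) and in 4 of 17 windows (23.5%). Among all genes with a window it was in 145 of 27025 (0.537%), and among those with 3 or more windows in 15 of 1061 (1.41%). The 250 bases before the start are shown for the 3 genes that hold the palindrome. The bases run 5′ to 3′ on the gene's strand, with the palindrome in capitals. They lie at chr10:21993640-21993889 (plus strand, the fifth of 6 Sgk1 windows), chr4:133240568-133240817 (plus strand, Map3k6) and chr14:8309780-8310029 (minus strand, the second of 3 Fam107a windows) of GRCm38.p6.
Sgk1: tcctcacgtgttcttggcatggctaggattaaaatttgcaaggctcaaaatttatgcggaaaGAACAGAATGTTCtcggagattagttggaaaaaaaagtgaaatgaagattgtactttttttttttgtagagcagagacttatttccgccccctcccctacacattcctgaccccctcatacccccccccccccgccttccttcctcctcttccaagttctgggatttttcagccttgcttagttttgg
Map3k6: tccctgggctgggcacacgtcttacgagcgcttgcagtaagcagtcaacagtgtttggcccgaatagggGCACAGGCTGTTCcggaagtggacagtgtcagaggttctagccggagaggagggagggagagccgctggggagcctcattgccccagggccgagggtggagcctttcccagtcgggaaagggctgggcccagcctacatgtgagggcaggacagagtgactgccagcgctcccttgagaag
Fam107a: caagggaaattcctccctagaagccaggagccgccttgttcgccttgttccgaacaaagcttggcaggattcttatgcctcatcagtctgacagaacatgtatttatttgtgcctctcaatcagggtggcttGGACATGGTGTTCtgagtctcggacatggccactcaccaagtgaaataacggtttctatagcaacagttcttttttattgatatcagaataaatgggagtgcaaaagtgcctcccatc
The palindrome began 188 bases before the start in Sgk1, 181 in Map3k6 and 118 in Fam107a, as GAACAGAATGTTC, GCACAGGCTGTTC and GGACATGGTGTTC. The third Fam107a window overlaps the second and holds the same copy. The half-site TGTTCT, on either strand, was in 6 of the 17 windows (35.3%) and in 19% of 32851 windows overall. Counted by gene, it was in 3 of 7 (42.9%), against 21.3% of all genes and 43.3% of all genes with 3 or more windows. The members that held it, Sgk1, Tsc22d3 and Fam107a, were those with 3 or more windows, so neither share is a like comparison for the 7. In the other responsive genes the half-site was in 2 of 25 windows (8%). It overlapped the palindrome in Sgk1 and in Fam107a but not in Map3k6. In the promoter windows of 22 of the other glucocorticoid-responsive genes described further on, the palindrome was in 1 (4.55%), Mt1, as GGACATGATGTTC beginning 94 bases before the start. Fkbp5, Klf9, Errfi1 and Tsc22d3 had windows without it, which says only that these letters are not in those bases. Of these, Fkbp5, Errfi1 and Tsc22d3 also rose in both genotypes. A match is a description of sequence and shows no binding.

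The second question of the design is whether the response depended on IL-6. In the edgeR test of the difference between the responses (the IL-6 -/- response minus the WT response), 0 of the 10 genes passed, where 0.475% of all tested genes passed, 0.0385% higher and 0.437% lower. At an unadjusted p under 0.05 the count was 2 of 10, against 8.94% of all genes, and DESeq2 and limma-voom also called 0. The intervals set what remains possible. Rasd1 had a difference of 0.08 (95% interval -0.663 to 0.826), Errfi1 0.09 (-0.535 to 0.717), Nr3c1 0.16 (-0.0763 to 0.396) and Sgk1 -0.27 (-1.2 to 0.647) on the log2 scale. The Fkbp5 response was 0.60 larger in IL-6 -/- liver (0.109 to 1.08, edgeR adjusted p = 0.406) and that of Klf9 0.47 (-0.00447 to 0.948, edgeR adjusted p = 0.567). Tsc22d3 (0.48, -0.641 to 1.61) and Map3k6 (0.50, -0.33 to 1.33) had wider intervals.

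The widest intervals belonged to genes with 1 library apart from its group. For Zbtb16 the difference was 2.18 (0.161 to 4.2, edgeR adjusted p = 0.503), and it was 1.06 without WT vehicle replicate 1. For Fam107a it was 1.5 (-0.183 to 3.18, edgeR adjusted p = 0.634), and it was 2.64 without KO vehicle replicate 2 (edgeR adjusted p = 0.0943). KO vehicle replicate 2 was the highest of its group in 9 of the 10 genes.

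Within one treatment, 0 of the 10 genes passed between genotypes in edgeR. In KO vehicle against WT vehicle, 0.0706% of all genes passed (0.0514% higher and 0.0193% lower), and in KO PRA against WT PRA 3.8% (1.64% higher and 2.15% lower). The unadjusted p was under 0.05 for 3 of the 10 genes after vehicle, against 5.99% of all genes, and for 2 under PRA, against 16.3%. After vehicle, Fkbp5 was lower in IL-6 -/- liver in every library (87.0 ± 23.0 against 141 ± 24.9 CPM, log2 fold change -0.70, SE 0.16, edgeR adjusted p = 0.142). DESeq2 called it (adjusted p = 0.017), and so did edgeR without KO vehicle replicate 2 (-0.86, adjusted p = 0.0377). Map3k6 was at 3.31 ± 1.44 against 6.66 ± 1.97 CPM (-1.02, SE 0.278, edgeR adjusted p = 0.407) and was called by DESeq2 as well (adjusted p = 0.0434). The other tool with a call was limma-voom under PRA, for Fam107a (adjusted p = 0.00217). Fam107a was at 40.0 ± 13.7 CPM in KO PRA (n = 3) and 14.5 ± 4.62 in WT PRA (n = 4), without overlap (1.47, SE 0.518, edgeR adjusted p = 0.148). Tsc22d3 and Nr3c1 were above WT in every KO PRA library too (0.75 and 0.21, edgeR adjusted p = 0.361 and 0.199). Map3k6 was below it in every library (-0.52, SE 0.283, edgeR adjusted p = 0.391), and passed when only those groups entered the fit (edgeR adjusted p = 0.0228). How often ranges separate among all genes was not counted, so these separations are not read as genotype differences.

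Some targets were higher in the vehicle-injected WT livers than in the non-injected ones. Injection cannot be told apart here from any other difference between these groups, such as the hour of harvest. In WT vehicle against normal, 2 of the 10 genes rose, Fkbp5 by 2.79-fold (log2 fold change 1.48, SE 0.163, edgeR adjusted p = 5.73e-05) and Map3k6 by 3.01-fold, from 2.2 ± 0.664 to 6.66 ± 1.97 CPM (1.59, SE 0.283, edgeR adjusted p = 0.00767). Among all genes, 2% passed, 1.18% higher and 0.822% lower. Klf9 and Fam107a were also above normal in every library without passing. Klf9 was at 59.5 ± 4.90 CPM in normal and 88.9 ± 17.4 in WT vehicle (0.58, SE 0.156, edgeR adjusted p = 0.0583), and 4 of 18 alternatives called it. Fam107a had 1.68 (SE 0.677, edgeR adjusted p = 0.245), or 2.86 without normal replicate 3, which at 0.883 CPM was above the 0.125 to 0.189 of the other normal libraries.

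The other targets did not pass in that comparison. Tsc22d3 was at 116 ± 64.5 CPM in normal and 45.9 ± 9.62 in WT vehicle (-1.33, SE 0.366, edgeR adjusted p = 0.0755), and DESeq2 called it lower after vehicle (adjusted p = 0.0176), as did edgeR without normal replicate 1 (adjusted p = 0.0372). Sgk1 had -0.64 (edgeR adjusted p = 0.315) and Rasd1 -0.54 (0.343). Errfi1 had -0.07 and Nr3c1 0.04, with edgeR adjusted p of 0.911 and 0.859. Zbtb16 had 1.91 (edgeR adjusted p = 0.17). Its value was 0.79 on leaving out replicate 1 of WT vehicle.

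Against the same normal livers, WT PRA was higher for 7 of the 10 genes and lower for Nr3c1, where 28.4% of all genes passed, 13.5% higher and 14.9% lower. Fkbp5 was 6.26-fold higher (log2 fold change 2.65, edgeR adjusted p = 9.46e-10), Map3k6 13.2-fold (3.72, 7.72e-08), Rasd1 14.5-fold (3.85, 6.31e-10) and Fam107a 37.8-fold (5.24, 2.29e-05). Without normal replicate 3 the log2 fold change of Fam107a was 6.43. Klf9 was 1.91-fold higher (edgeR adjusted p = 0.000153) and Errfi1 1.68-fold (0.00976). Some calls were close to the threshold. Zbtb16 (1.92, SE 0.671, edgeR adjusted p = 0.0453) held in 7 of 18 alternatives and was lost on leaving out any one of 7 of the 8 libraries, the exception being normal replicate 3. Nr3c1 (-0.21, SE 0.0774, edgeR adjusted p = 0.0435), whose groups overlapped, held in 8 of 18 and was lost without normal replicate 1 or 4 or WT PRA replicate 2, 3 or 4 (edgeR adjusted p from 0.0589 to 0.169).

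Tsc22d3, which rose in PRA against vehicle, was at 132 ± 34.9 CPM in WT PRA and 116 ± 64.5 in normal, a difference of 0.19 (SE 0.36, edgeR adjusted p = 0.74). Sgk1 was at 23.6 ± 3.28 against 13.5 ± 6.61 CPM (0.80, SE 0.295, edgeR adjusted p = 0.0524) and passed without normal replicate 3 (1.2, edgeR adjusted p = 0.00189). In all, 6 of 18 alternatives called it, DESeq2 (adjusted p = 0.0108), limma-voom (0.00482), RLE scaling (edgeR adjusted p = 0.0487), the 1 CPM filter (0.0457) and the replicate block (0.0418) among them. The genes thus had different orders over the WT groups. Fkbp5 and Map3k6 passed at both steps, normal to vehicle and vehicle to PRA. Rasd1 and Errfi1 had vehicle and normal livers overlapping and PRA above both. Tsc22d3 passed in PRA against vehicle and not against normal. The comparisons share the normal, vehicle or PRA libraries, so their values are set side by side and are not independent of each other.

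**Figure D3:**
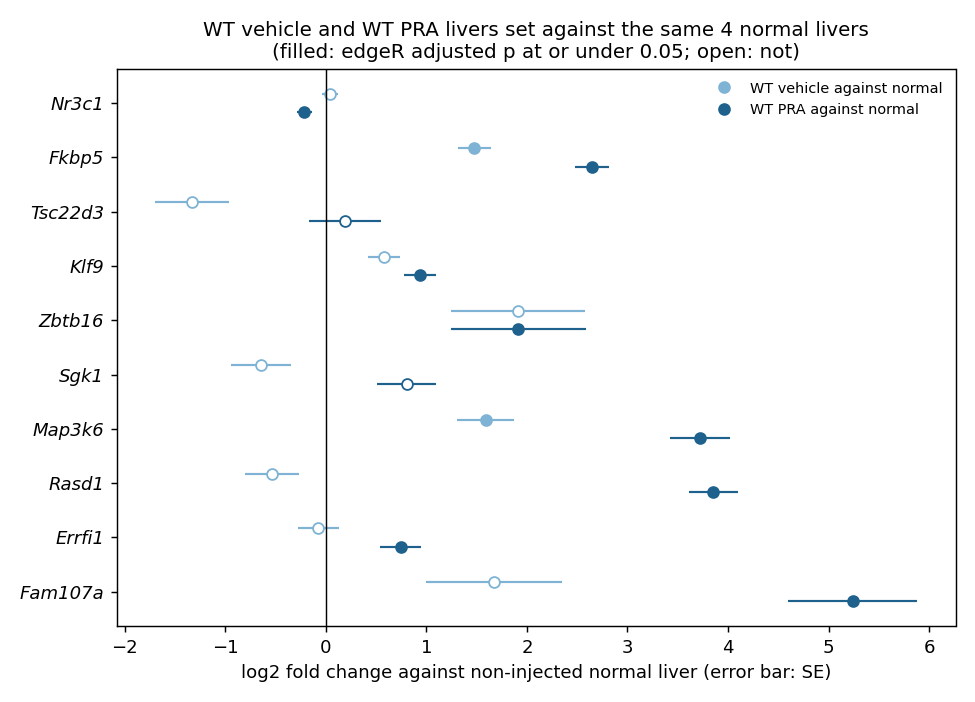
Log2 fold change of each gene in WT vehicle (light blue) and WT PRA (dark blue) against the same 4 normal livers, with the SE of the fit; filled points passed an edgeR adjusted p of 0.05. Fkbp5 and Map3k6 are filled in both comparisons, and Tsc22d3 lies left of 0 after vehicle (-1.33) and near 0 under PRA (0.19).

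The genes with the most similar profiles over the 19 libraries were sought for Fkbp5, Tsc22d3 and Nr3c1. Likeness was the root mean square difference of log2 CPM, each gene centred on its own mean, among 10029 candidate genes, and a small value means a similar profile. For Fkbp5 the nearest genes were Retreg1 (0.275), an endoplasmic reticulum turnover receptor, Saa4 (0.326), a serum amyloid A protein, and Serpina3m (0.369), a serine protease inhibitor. The candidate median was 1.05 and the spread of Fkbp5 about its own mean 1.04. Retreg1 had group means of 33.7 CPM in normal, 97.6 in WT vehicle, 309 in WT PRA, 66.4 in KO vehicle and 291 in KO PRA, the same order as Fkbp5. For Tsc22d3 they were Tcim (0.448), Arl4d (0.451) and Rasgef1b (0.476), with a median of 0.947 and an own spread of 0.934. All 3 had their lowest group means after vehicle and their highest under PRA, with normal between, as in Tcim at 46.3 CPM in normal, 24.1 in WT vehicle and 94.2 in WT PRA. Arl4d is also in the list of other responsive genes below. For Nr3c1 they were Tspan14 (0.0955), Cnot9 (0.0992) and Txnrd2 (0.0999). The receptor's own spread about its mean was 0.132 on that scale, so its neighbours are genes with little change and the likeness says little. Saa4 and Serpina3m belong to families with near-identical copies, among which reads may have been divided.

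A list of 27 other genes known to respond to glucocorticoids was followed too. Like the 10 genes, it was chosen with earlier results of these data known, so its counts are not independent support. Of the 27, 22 rose and 1 fell in WT PRA against WT vehicle (median log2 fold change 1.94), where 9.74% of all genes rose and 12.3% fell. In KO PRA against KO vehicle 25 rose and 1 fell (median 1.86), where 7.96% of all genes rose and 8.38% fell. The gene that fell in both was Cyp7a1, whose enzyme sets the rate of bile acid production, named here after its values were seen. It went from 118 ± 43.7 to 22.0 ± 14.3 CPM in WT and from 76.9 ± 9.98 to 9.19 ± 4.29 in KO. Among those with the smallest p were the transcription factor genes Cebpb (1.86 in WT and 1.59 in KO on the log2 scale, edgeR adjusted p = 1.8e-10 and 9e-09) and Cebpd (2.28 and 2.04, edgeR adjusted p = 3.53e-09 and 9.27e-08). Nfkbia, the inhibitor of NF-kappaB, had 1.06 and 1.03 (edgeR adjusted p = 6.82e-07 and 4.3e-06). The stress gene Gadd45b had 3.33 and 2.67 (edgeR adjusted p = 6.41e-07 and 1.63e-05). Ddit4, an inhibitor of mTORC1 signalling, went from 9.04 ± 2.26 to 211 ± 32.2 CPM in WT (4.54, edgeR adjusted p = 1.05e-06). The metal-binding gene Mt2 went from 28.6 ± 17.1 to 699.9 ± 146 CPM in KO (4.61, edgeR adjusted p = 7.63e-06).

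**Figure D4:**
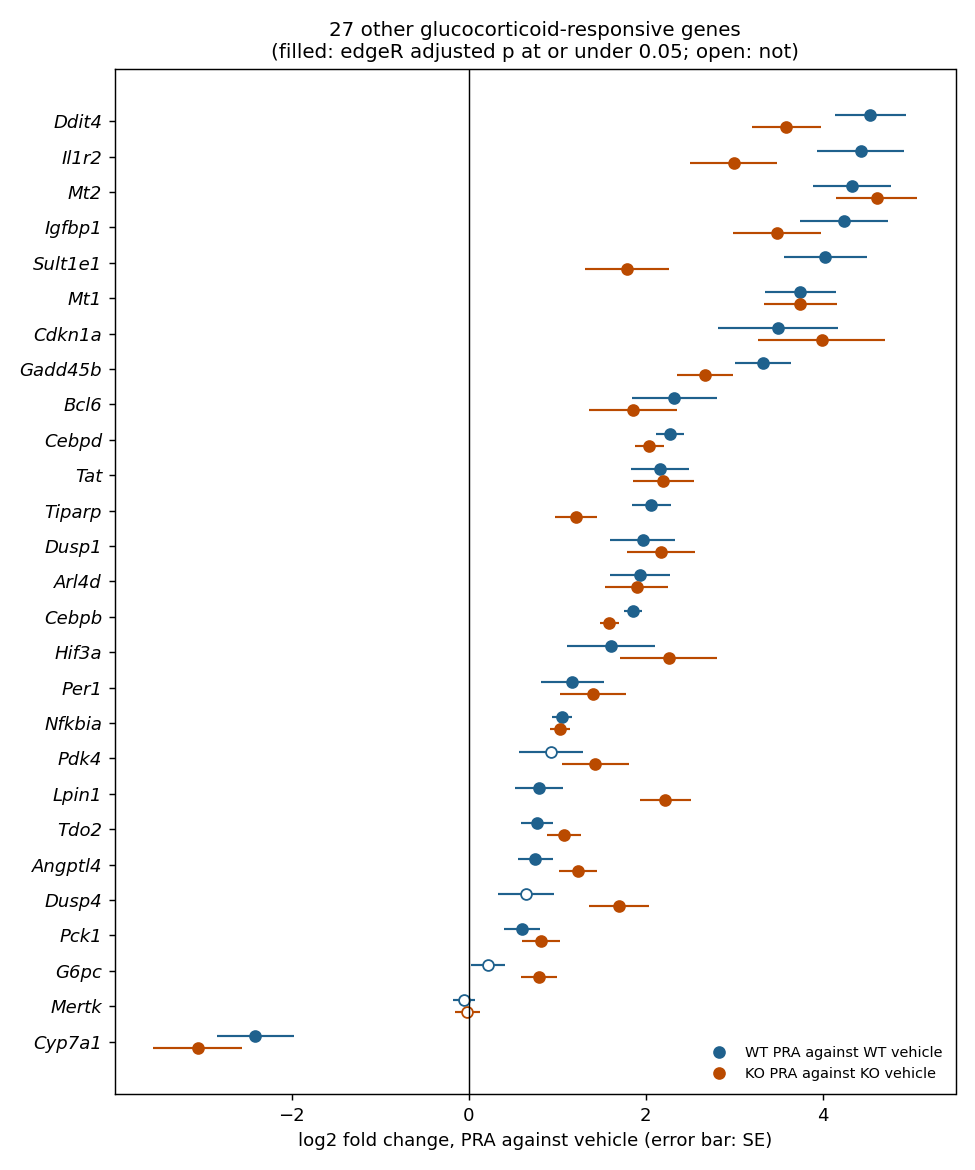
Log2 fold change, PRA against vehicle, of the 27 other glucocorticoid-responsive genes in WT (blue) and IL-6 -/- (KO, orange) liver with the SE of the fit; filled points passed an edgeR adjusted p of 0.05. In WT 22 filled points lie right of 0 and 1, Cyp7a1, left of it; in KO 25 lie right and 1 left.

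By edgeR, 0 of the 27 differed between genotypes in the response (4 at an unadjusted p under 0.05, 1 by DESeq2 and 0 by limma-voom), and 0 after vehicle (4, 3 and 2). Of all genes, 0.475% and 0.0706% passed in edgeR. Under PRA, 3 of the 27 were lower in IL-6 -/- liver, against 2.15% of all genes. They were Tiparp, a mono-ADP-ribosyltransferase gene (-1.19, edgeR adjusted p = 0.00487), Cebpb (-0.54, 0.00563) and the metallothionein Mt1 (-1.52, 0.0483). Counted in either direction, 8 of the 27 had an unadjusted p under 0.05, against 16.3% of all genes. DESeq2 called 7 and limma-voom 7. After vehicle, Mt1 was at 78.9 ± 33.9 CPM in KO and 226 ± 109 in WT, without passing in edgeR. After vehicle against normal, 3 rose and 2 fell, where 1.18% of all genes were higher and 0.822% lower. Mt2 and Mt1 rose (4.65 and 3.40, edgeR adjusted p = 8.68e-05 and 0.000416), as did Mertk, a receptor for clearing dead cells (0.51, 0.0351). Nfkbia (-0.62, edgeR adjusted p = 0.00384) and the repressor gene Bcl6 (-2.69, 0.0104) fell. In WT PRA against normal, 21 rose and 1 fell, where 13.5% of all genes were higher and 14.9% lower. Mt2 went from 3.83 ± 0.372 CPM in normal through 96.3 ± 44.9 after vehicle to 1942 ± 283 under PRA, the same order as Fkbp5 and Map3k6.

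A last list held the genes that handle the receptor and its hormone. Of 25 chaperones, co-regulators and corticosteroid enzymes, 24 were tested, and their counts are to be read beside the shares of all genes given above for the same comparisons. In WT PRA against WT vehicle 2 rose and 1 fell (median 0.128), where 9.74% of all genes rose and 12.3% fell. The chaperones Hspa8 (0.56, edgeR adjusted p = 0.00567) and Ptges3 (0.26, 0.0437) rose. The mineralocorticoid receptor gene Nr3c2 fell, from 6.47 ± 1.05 to 3.83 ± 0.841 CPM (-0.75, edgeR adjusted p = 0.0149). In KO PRA against KO vehicle 2 rose and 0 fell (median 0.026), where 7.96% of all genes rose and 8.38% fell. Those that rose were the coactivator gene Ppargc1a (1.18, edgeR adjusted p = 0.00523) and the chaperone gene Dnajb1 (0.70, 0.0198). By edgeR, 0 passed in the difference between the responses (1 at an unadjusted p under 0.05 and 0 by DESeq2 and limma-voom), between genotypes after vehicle (0 by each) and between genotypes under PRA (3 unadjusted, 1 by DESeq2 and 0 by limma-voom). After vehicle against normal, Dnajb1 (-0.97, edgeR adjusted p = 0.00954) and Hspa8 (-0.59, 0.0286) fell and H6pd, which supplies NADPH for the regeneration of active glucocorticoid, rose (0.56, 0.0493). These are 3 of the 24, where 2% of all genes passed. In WT PRA against normal 2 of the 24 rose and 4 fell, where 13.5% of all genes were higher and 14.9% lower. Among them were H6pd (0.77, edgeR adjusted p = 0.000457) and Nr3c2 (-1.15, 0.000392).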

How the data were processed

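The authors deposited raw counts per gene for 19 libraries, as one series table and as per-library files with the same counts (19 of 19). Poly(A) RNA was sequenced in pairs, per the labels' protocols. HISAT2 2.2.1, SAMtools 1.13, HTSeq 0.11.3 and build GRCm39 are named in the submitters' processing notes. Neither annotation release nor strand setting is given in the sources used here, so reads of overlapping or antisense genes cannot be told apart. Summary lines (28.29% to 33.05% of a library) stayed out of library sizes and tests.

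Groups and replicate numbers came from the sample titles. Replicates of a group were not repeat deposits (chi-square per degree of freedom of a pair was at least 22.74). The tests used edgeR 4.0.16 (R 4.3.3): filterByExpr on group, TMM, a robust quasi-likelihood fit with 1 mean per group over all 19 libraries, 7 contrasts, and Benjamini-Hochberg adjustment over 15570 genes at 0.05. Intervals are 95%. DESeq2 1.42.0, limma-voom (limma 3.58.1), other scalings and filters, a 1.5-fold minimum (glmTreat), a replicate block and each library left out were alternatives; the fits were tested on simulated data. The 10 genes and the lists were chosen with earlier results of these data known. All 10 genes are named in every contrast, and from each of the 2 gene lists at most 5 per contrast, by smallest adjusted p. Likeness used genes with at least 2 CPM on average and log2 CPM with a prior count of 1. Symbols came from a gene name table (52083 of 55416 IDs matched; the G6pc1 of the list is G6pc there).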

Additional observations from a re-analysis of the deposited data

Results flagged for a closer look

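In 40 groups of 4 libraries (10 genes in 4 groups) the gap of the highest or lowest library to its nearest neighbour was compared with the group's range, and 6 exceeded Dixon's critical value of 0.829. For independent values with a normal spread, chance would give about 1 in 20. The 10 genes share libraries and the values are CPM without logs, so no excess over that rate is claimed for the 6. KO vehicle replicate 2 accounted for 4 of them, each time as the highest library. It had 2.99 CPM of Fam107a where the others had 0.370 to 0.777. Klf9 was at 112 CPM there against 66.3 to 74.0, Sgk1 at 17.8 against 8.26 to 9.52, and Tsc22d3 at 92.7 against 39.7 to 45.3. Normal replicate 3 had 0.883 CPM of Fam107a against 0.125 to 0.189 in the other normal livers. WT vehicle replicate 1 had 49.4 CPM of Zbtb16 against 7.16 to 9.75. The highest library of its group was KO vehicle replicate 2 for 9 of the 10 genes, WT vehicle replicate 1 for 7 and normal replicate 3 for 6, and the lowest was KO PRA replicate 1 for 8.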

How the results depend on the processing

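Of the 1310 single-gene values recomputed under alternatives over the 7 comparisons, 1239 kept their direction and side of the threshold, 51 lost the call, 20 gained one and 0 reversed. The count of the 10 genes called moved by over 1.5 times in these cases. A minimum change of 1.5-fold (glmTreat), a stricter question by construction, left 5 for WT PRA against vehicle (from 8), 5 for KO PRA against vehicle (from 9), 4 for WT PRA against normal (from 8) and 1 for WT vehicle against normal (from 2). DESeq2 called 2 for KO against WT vehicle (Fkbp5 and Map3k6, from 0) and 4 for WT vehicle against normal. For KO PRA against WT PRA, limma-voom called 1 (Fam107a) and a fit of those groups alone 1 (Map3k6), from 0. The cause of these shifts was not tested. Leaving out 1 library gave 7 to 8 genes for WT PRA against vehicle, 7 to 9 for KO PRA against vehicle, 6 to 9 for WT PRA against normal, 2 to 3 for WT vehicle against normal and 0 to 1 for KO against WT vehicle (1 without KO vehicle replicate 2). It gave 0 for the difference between responses and for KO PRA against WT PRA.

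Over all genes, glmTreat left 625 genes of 3437 in WT and 417 of 2544 in KO for PRA against vehicle, 925 of 4421 for WT PRA against normal, 81 of 591 for KO against WT PRA, 17 of 74 for the difference between responses, 13 of 311 for WT vehicle against normal and 4 of 11 for KO against WT vehicle. DESeq2 called 178, 52, 927 and 647 for the difference between responses, KO against WT vehicle, KO against WT PRA and WT vehicle against normal, and limma-voom called 21 and 648 for the second and the last. A fit of only the groups compared gave 7 and 154 for the same pair. Library totals with no scaling factors, added after seeing that the factors moved with treatment, moved the all-gene median of the log2 fold changes to -0.326 in WT, -0.21 in KO and -0.402 for WT PRA against normal, with 7034, 3817 and 8804 genes called, 44 for the difference and 7 for KO against WT vehicle. Under it Errfi1 lost its call in WT PRA against vehicle (0.51, edgeR adjusted p = 0.0683) and against normal (0.36, 0.165). Zbtb16 lost it in KO PRA against vehicle (2.01, 0.0506) and in WT PRA against normal (1.53, 0.0649). Nr3c1 passed as lower in KO PRA against vehicle (-0.301, edgeR adjusted p = 0.0205), a value to be read beside the shifted median, and was -0.557 in WT. Leaving out 1 library moved all-gene counts by over 1.5 times in these cases. WT vehicle against normal fell to 128 without normal replicate 2 and 179 without WT vehicle replicate 2. KO against WT vehicle fell to 6, 2 and 5 without WT vehicle replicate 2, WT vehicle replicate 4 and KO vehicle replicate 3. KO against WT PRA fell to 385 without WT PRA replicate 3 and 314 without KO PRA replicate 1. KO PRA against vehicle fell to 1671 without KO PRA replicate 2. The difference between responses fell to 40, 42, 43 and 37 without WT vehicle replicate 2, WT PRA replicate 3, KO vehicle replicate 3 and KO PRA replicate 2.

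Same-numbered libraries did not deviate together (22 pairs, r from -0.214 to 0.18, 4 over 0.1), so numbers were not taken to pair samples. With the replicate block, 8 genes were called for WT PRA against vehicle, 8 for KO PRA against vehicle (Zbtb16 was lost), 2 for WT vehicle against normal, 7 for WT PRA against normal, and 0 for the difference between responses and both genotype comparisons.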
